A study of Mus musculus with 4 samples.

Results

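The genes described here encode subunits of the Polycomb complexes PRC1 and PRC2, of the BAP1 deubiquitinase and of the COMPASS methyltransferases. They were taken from a list of 43 gene symbols, all of which had a row in the deposited tables of 55426 genes. RNA was measured in 2 libraries of MLL-ENL dYEATS cells and 2 libraries of MLL-ENL cells. Both cell lines are transformed mouse haematopoietic stem and progenitor cells, made from lineage-negative bone marrow and grown in medium with 15% serum, and both carry an MLL-ENL fusion. This oncoprotein joins the front part of the methyltransferase MLL (Kmt2a) to a part of ENL (Mllt1), a reader of acylated histones and a member of transcription elongation complexes. In the MLL-ENL dYEATS cells the ENL part is labelled as residues 372 to 559, so it lacks the N-terminal YEATS domain with which ENL binds acylated lysines. The ENL residues in the other fusion, the vector and its promoter, and how many lines were made per genotype were all not given in the sources used here. The design text calls the libraries of a genotype technical replicates, so p-values here reflect only how far libraries of the same line differ, and the effect of the genotype and that of the line cannot be told apart.

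Polycomb complexes keep genes silent by marking histones. PRC1 ubiquitinates histone H2A through its RING1 subunits, while PRC2 methylates histone H3 at the repressive H3K27 position through EZH1 or EZH2. Canonical PRC1 holds a CBX protein that binds the mark left by PRC2, and variant PRC1 holds RYBP or YAF2 in its place. COMPASS complexes methylate H3K4 at promoters and enhancers of active genes, and MLL itself is a COMPASS enzyme. Both systems bear on this leukaemia model, because the MLL fusion holds active the genes that Polycomb would otherwise repress, and because CBX8 is known to bind the ENL and AF9 parts of MLL fusions.

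Library totals lay between 28177480 and 28814798 expected counts in MLL-ENL dYEATS cells and between 27812855 and 28121268 in MLL-ENL cells, and 3 counts correspond to 0.102 to 0.112 CPM, the count of a gene scaled by its library's TMM-adjusted total. The pan-blood marker Ptprc was present in all libraries, at 271 and 276 CPM in MLL-ENL dYEATS cells and 193 and 264 CPM in MLL-ENL cells. The progenitor marker Cd34 was near 0, with at most 0.105 CPM in any library. Summed markers of T and NK, B, erythroid, megakaryocyte and stromal cells reached at most 2.39 CPM per list in any library. Of 8 tested blood and progenitor markers 2 rose (Spi1 and Csf1r) and 3 fell (Kit, Mpo and Cebpa) by edgeR's quasi-likelihood test, which is 62.5% called, against 16.9% of all genes tested. The call of Spi1 was lost in 6 of 13 alternative fits, among them those without MLL-ENL dYEATS replicate 1 (adjusted p = 0.595) or replicate 2 (0.563), and that of Csf1r in 3 of 13, among them the fit without MLL-ENL dYEATS replicate 1 (0.102). Kit, the stem cell factor receptor of progenitors, stood at 2.62 and 3.91 CPM in MLL-ENL dYEATS cells, against 50.4 and 66.9 CPM in MLL-ENL cells, and Mpo, the granule peroxidase of promyelocytes, at 59.4 and 62.4 CPM in MLL-ENL dYEATS cells, against 594 and 466 CPM in MLL-ENL cells. The part that this difference in cell state has in the values below was not tested. In bulk RNA, fewer cells of a type and less RNA per cell cannot be told apart.

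A gene was called when edgeR's quasi-likelihood test gave an adjusted p under 0.05, with Benjamini-Hochberg adjustment over the 13245 genes tested. All 43 Polycomb and COMPASS genes were tested. Of these, 1 rose in MLL-ENL dYEATS cells (Ash2l) and 2 fell (Cbx6 and Phc1), which is 6.98% called, against 16.9% of all genes tested (7.04% higher and 9.84% lower). The median log2 fold change (MLL-ENL dYEATS minus MLL-ENL) was 0.06 over the 43 genes and -0.01 over all genes tested. The median size of the log2 fold change was 0.149 over the 43 genes and 0.291 over all genes. Of the 43 genes 37 (86%) had a log2 fold change below 0.5 in size, as had 70.4% of all genes. The 4 libraries did not overlap between the lines for 22 of the 43 genes (51.2%), of which 15 were higher and 7 lower in MLL-ENL dYEATS cells, against 64.3% of all genes (32.1% higher and 32.2% lower). At an unadjusted p under 0.05 there were 10 of the 43 (23.3%), against 33.3% of all genes. The 43 genes summed to between 3485 and 3486 CPM in MLL-ENL dYEATS cells and to between 3125 and 3494 CPM in MLL-ENL cells, and these ranges overlap.

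These counts rest strongly on the spread within the MLL-ENL pair. Without MLL-ENL replicate 1, 27 of the 43 genes were called by edgeR's quasi-likelihood test (62.8%, against 54.7% of all genes), and without MLL-ENL replicate 2, 29 were (67.4%, against 66.5%). In these fits the lone MLL-ENL library is assumed to vary like the MLL-ENL dYEATS pair. The ribosomal RNA gene CT010467.1 took 5.46% and 5.42% of the counts in MLL-ENL dYEATS cells, against 9.25% in MLL-ENL replicate 1 and 4.94% in MLL-ENL replicate 2, and the part of this in the spread was not tested. In the fits that left out an MLL-ENL dYEATS library, Cbx6 and Phc1 kept their calls and Ash2l lost its call. Fewer of all genes were called in these fits as well, so the loss of a call is not particular to Ash2l.

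**Figure D1:**
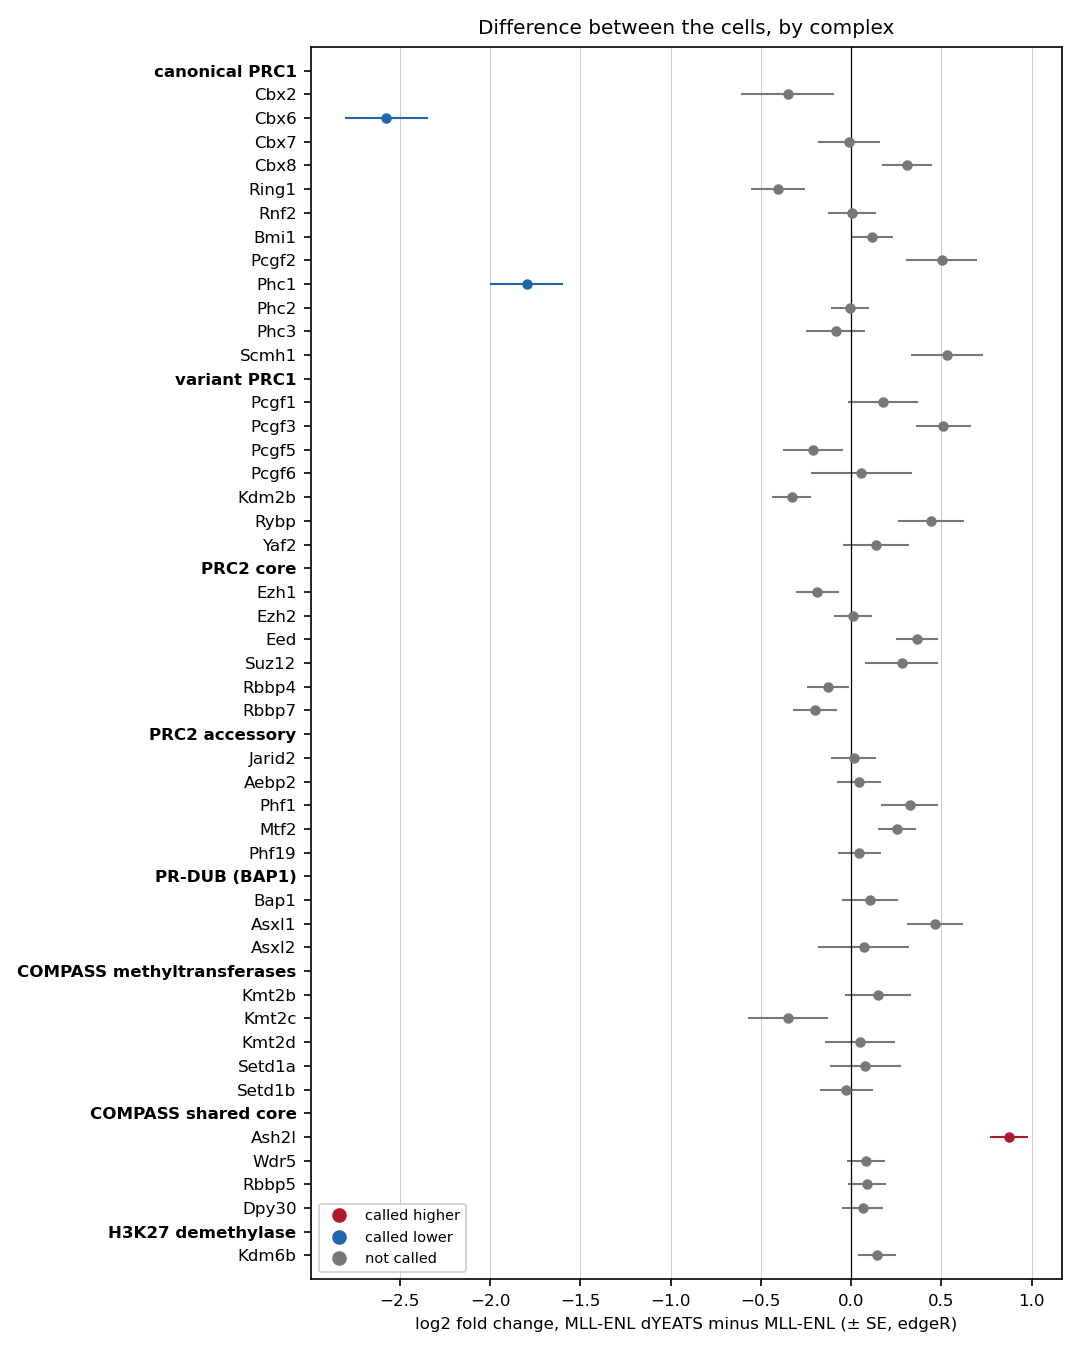
Log2 fold change in CPM, MLL-ENL dYEATS minus MLL-ENL, for the 43 genes ordered by complex; points are edgeR estimates and bars ± SE from 2 libraries per line. Cbx6 stands at -2.57 and Phc1 at -1.80 in canonical PRC1 and Ash2l at 0.87 in the COMPASS shared core, while 37 of the 43 points lie within 0.5 of 0.

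Canonical PRC1 held both of the called decreases. Its 12 genes had a median log2 fold change of -0.01, with 0 called higher and 2 called lower, or 16.7% called, close to the 16.9% of all genes tested. The decreases were in Cbx6, a CBX chromodomain protein, and Phc1, a polyhomeotic protein that links PRC1 complexes to each other. Cbx8, the CBX protein known to bind the ENL part of the fusion, was not called.

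Cbx6 (ENSMUSG00000089715, GRCm38 chr15:79823896-79834688, minus strand) had 4.60 and 6.11 CPM in MLL-ENL dYEATS cells, against 36.9 and 26.9 CPM in MLL-ENL cells. Both MLL-ENL dYEATS libraries lay far below both MLL-ENL libraries. The mean was 5.35 ± 1.07 CPM in MLL-ENL dYEATS cells and 31.9 ± 7.05 CPM in MLL-ENL cells (SD, n = 2 each), 5.96-fold lower in MLL-ENL dYEATS cells, with a log2 fold change of -2.57 ± 0.23 (SE) and an adjusted p of 0.00202 by edgeR's quasi-likelihood test. Cbx6 was called in each fit that was run. Its size ranks 412th among the 1303 genes called lower. The deposited FPKM, which divide by an estimated length, were 1.88 and 1.79 in MLL-ENL dYEATS cells and 6.71 and 6.85 in MLL-ENL cells, a smaller ratio of 3.69-fold. The transcript length that joins the deposited counts to FPKM was 2492 and 3470 bases in MLL-ENL dYEATS cells and 5236 and 3973 bases in MLL-ENL cells, so the length used for Cbx6 was not the same in each library.

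Phc1 (ENSMUSG00000040669, chr6:122317731-122340561, minus strand) was low in both lines, with 1.499 and 1.85 CPM in MLL-ENL dYEATS cells, against 5.60 and 6.05 CPM in MLL-ENL cells. The libraries of the lines did not overlap, and the values rest on 44 and 53 counts in MLL-ENL dYEATS cells and 150 and 170 counts in MLL-ENL cells. The mean was 1.67 ± 0.248 CPM in MLL-ENL dYEATS cells and 5.82 ± 0.314 CPM in MLL-ENL cells (SD, n = 2 each), 3.48-fold lower in MLL-ENL dYEATS cells, with a log2 fold change of -1.80 ± 0.20 (SE) and an adjusted p of 0.00449 by edgeR's quasi-likelihood test. On FPKM the ratio was 2.18-fold, and limma did not call it, at an adjusted p of 0.0844 with a pseudocount of 1 and 0.0890 with a pseudocount of 0.1. The length used for Phc1 was 1468 and 1980 bases in MLL-ENL dYEATS cells and 3156 and 2315 bases in MLL-ENL cells.

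Cbx8 (ENSMUSG00000025578, chr11:119036305-119040969, minus strand) had 12.5 and 11.4 CPM in MLL-ENL dYEATS cells, against 9.15 and 10.1 CPM in MLL-ENL cells. Its libraries did not overlap between the lines. The log2 fold change was 0.31 ± 0.14 (SE), with an adjusted p of 0.189 by edgeR's quasi-likelihood test. On FPKM the libraries did overlap, at 7.18 and 5.12 in MLL-ENL dYEATS cells and 3.94 and 5.39 in MLL-ENL cells.

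The promoters of these genes are shown because Polycomb complexes gather at CpG islands, and because the genes that fell and Cbx8 differ in their content of CG pairs. The RefSeq table for GRCm38.p6 gives 300 bases around its own start of a gene, and 35 of the 43 genes matched it. That start lay 355 bases from the GENCODE M21 gene start for Cbx6, 334 for Phc1 and 56 for Cbx8. For the 35 genes the RefSeq start nearest the GENCODE start was used, but over all tested genes the start listed first. Their shares below thus rest on unlike choices of window. Each promoter is written 5′ to 3′ on the strand of the gene, with every CG in capitals.
Cbx6, chr15:79834284-79834583, minus strand: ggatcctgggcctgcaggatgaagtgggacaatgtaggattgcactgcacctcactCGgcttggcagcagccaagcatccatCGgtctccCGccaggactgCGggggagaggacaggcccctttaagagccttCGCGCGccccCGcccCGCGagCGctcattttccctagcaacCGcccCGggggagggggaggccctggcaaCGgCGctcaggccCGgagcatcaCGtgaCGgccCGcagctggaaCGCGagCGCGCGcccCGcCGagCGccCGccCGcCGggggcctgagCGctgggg
Phc1, chr6:122340178-122340477, minus strand: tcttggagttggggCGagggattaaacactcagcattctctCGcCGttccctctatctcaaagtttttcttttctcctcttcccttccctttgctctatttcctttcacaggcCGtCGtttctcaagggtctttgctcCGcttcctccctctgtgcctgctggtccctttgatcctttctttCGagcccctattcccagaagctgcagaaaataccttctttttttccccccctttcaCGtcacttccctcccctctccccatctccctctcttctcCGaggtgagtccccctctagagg
Cbx8, chr11:119040864-119041163, minus strand: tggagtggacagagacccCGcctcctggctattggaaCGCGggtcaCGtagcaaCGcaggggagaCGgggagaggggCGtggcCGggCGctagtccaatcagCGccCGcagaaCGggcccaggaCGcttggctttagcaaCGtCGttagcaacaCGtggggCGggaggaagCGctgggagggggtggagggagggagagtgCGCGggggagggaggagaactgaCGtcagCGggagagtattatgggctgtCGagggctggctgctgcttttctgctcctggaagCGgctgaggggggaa
The Cbx6 promoter holds 31 CG pairs, the Cbx8 promoter 24 and the Phc1 promoter 9. Over the 35 matched genes the median was 27, with a range of 1 to 56, against a median of 21.0 over the 9544 tested genes in the table. At least 10 pairs were found in 91.4% of the 35 promoters and in 81.9% of the promoters of tested genes. Cbx6 and Phc1 thus lie on either side of the median of the 35, and the called gene Ash2l was not among these.

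The same windows were searched on both strands for 6 short motifs. CACGTG, the E-box core bound by MYC and MAX, was found in 9 of the 35 promoters (25.7%), Cbx6 and Cbx8 among them, and in 10.4% of the promoters of tested genes. GGGGCGGGG, bound by SP and KLF factors, was found in 10 (28.6%, against 21.6%), with Cbx6 among them. GCGGGAA, an E2F motif, was found in 4 (11.4%, against 8.70%). CCGGAAG, an ETS motif, was found in 2 (5.71%, against 19.6%). TGATTTAT, a HOX-MEIS motif, and GAGGAAGT, a PU.1 motif, were found in 0 of the 35, against 0.325% and 3.47% of the promoters of tested genes. The Phc1 window held none of the 6. These matches describe letters in a window and were not tested.

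**Figure D2:**
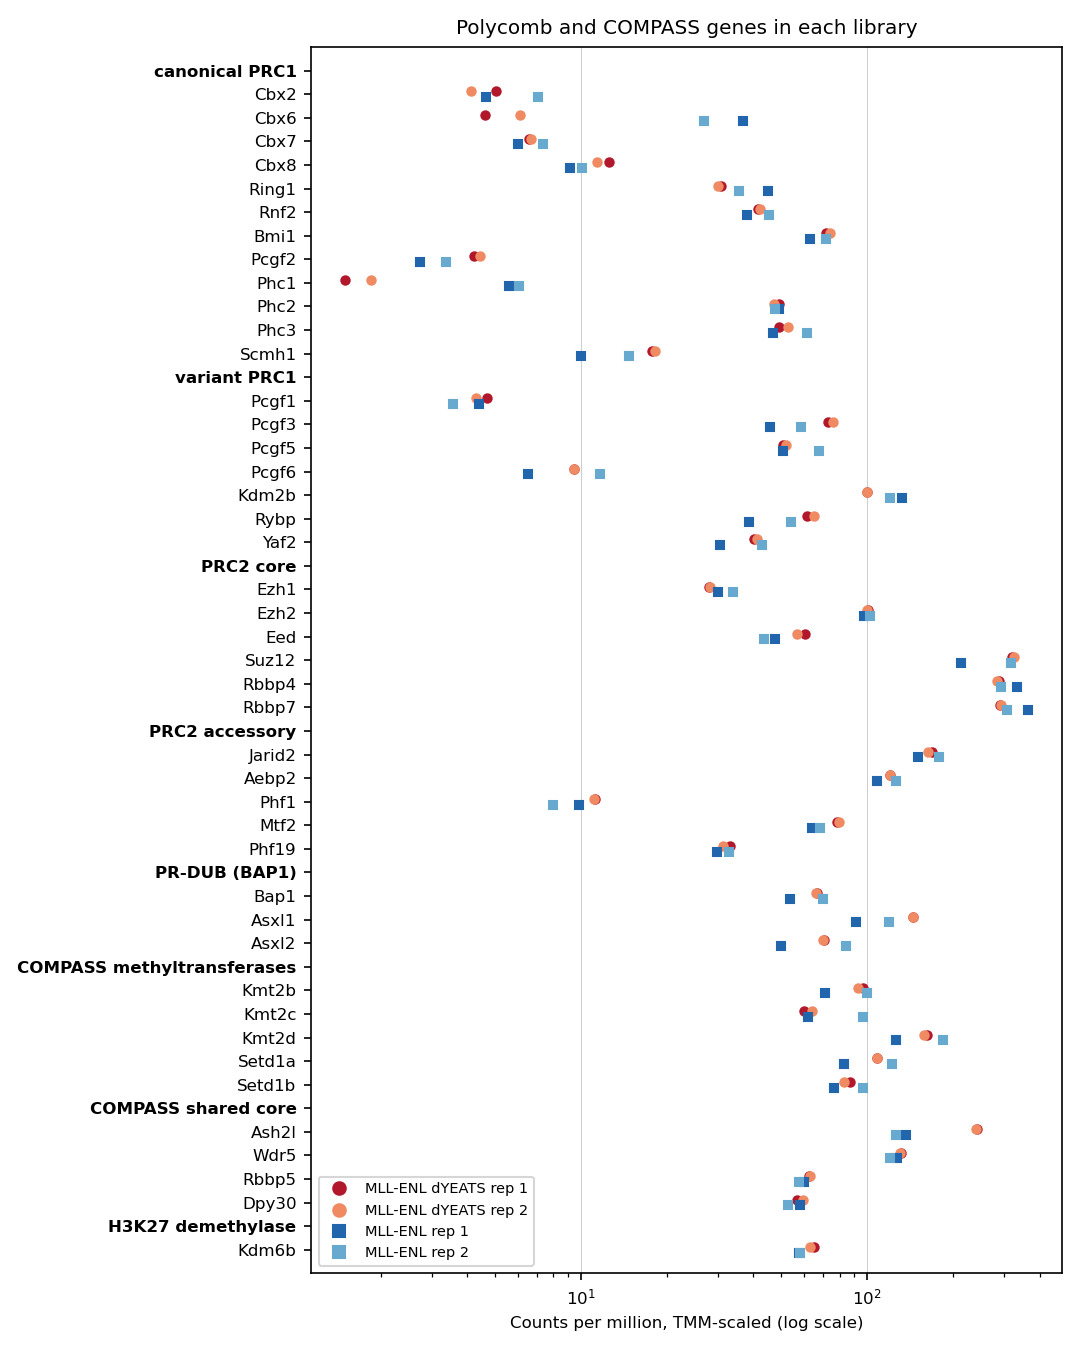
CPM of the 43 genes in each library, on a log axis, ordered by complex; each point is 1 library, with MLL-ENL dYEATS and MLL-ENL libraries in different colours. The libraries stand clearly apart for Cbx6, Phc1 and Ash2l, while the MLL-ENL libraries spread more widely than the MLL-ENL dYEATS libraries for most other genes.

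Per length, Cbx6 stood below Cbx7 and Cbx8 in both MLL-ENL dYEATS libraries and above them in both MLL-ENL libraries. Cbx7 had 2.10 and 2.85 FPKM in MLL-ENL dYEATS cells, against 1.68 and 2.99 FPKM in MLL-ENL cells. Cbx2 had 1.46 and 1.19 FPKM in MLL-ENL dYEATS cells, against 1.25 and 2.03 FPKM in MLL-ENL cells, and the libraries of both genes overlapped between the lines. Cbx7 and Cbx2, which like CBX6 read the mark of PRC2 through a chromodomain, had log2 fold changes of -0.01 and -0.35 with adjusted p of 0.971 and 0.399 by edgeR's quasi-likelihood test.

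The polyhomeotic family was led by Phc2, with 79.7% and 78.0% of the family's FPKM in MLL-ENL dYEATS cells and 78.5% and 73.1% in MLL-ENL cells. The share of Phc1 was 2.78% and 2.71% in MLL-ENL dYEATS cells, against 5.53% and 6.95% in MLL-ENL cells, the smallest of the 3 in every library. Phc2 and Phc3 had log2 fold changes of -0.01 and -0.09, neither called. These are shares of RNA and say nothing of protein, and the length used for Phc1 differed between the libraries.

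**Figure D3:**
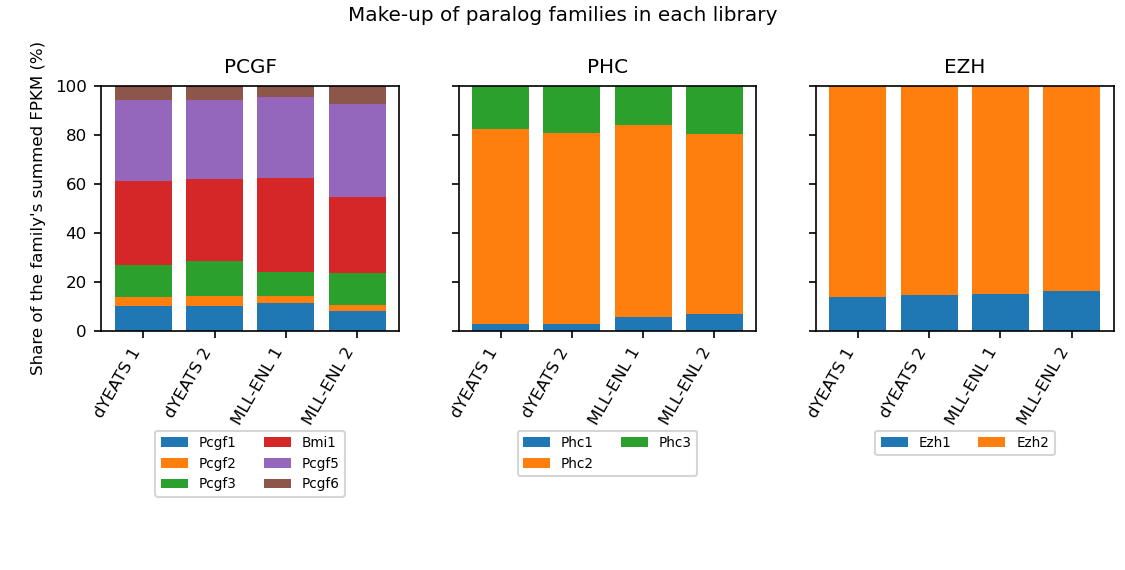
Share of each paralog in the summed FPKM of its family, in percent, in each of the 4 libraries; the MLL-ENL dYEATS libraries stand left of the MLL-ENL libraries. Phc1 takes 2.78% and 2.71% of the PHC family in MLL-ENL dYEATS cells, against 5.53% and 6.95% in MLL-ENL cells, while Phc2 and Ezh2 lead the PHC and EZH families in all 4.

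The catalytic centre of PRC1 was not called. Rnf2 (RING1B), the main E3 ligase subunit, had 41.3 and 42.2 CPM in MLL-ENL dYEATS cells, against 37.9 and 45.3 CPM in MLL-ENL cells, with a log2 fold change of 0.00 and an adjusted p of 0.987 by edgeR's quasi-likelihood test. Its paralog Ring1 had 30.8 and 30.2 CPM in MLL-ENL dYEATS cells, against 45.0 and 35.5 CPM in MLL-ENL cells. The Ring1 libraries did not overlap, with a log2 fold change of -0.40 and an adjusted p of 0.130 by edgeR's quasi-likelihood test.

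Of the PCGF proteins, which define the type of PRC1, Bmi1 (PCGF4) sustains self-renewal of haematopoietic stem cells. It had 71.9 and 74.3 CPM in MLL-ENL dYEATS cells, against 63.1 and 71.8 CPM in MLL-ENL cells, where the higher MLL-ENL library lay just under the MLL-ENL dYEATS libraries. The log2 fold change was 0.12, with an adjusted p of 0.542 by edgeR's quasi-likelihood test. Pcgf2 (MEL18), the other canonical PCGF protein, had 4.22 and 4.43 CPM in MLL-ENL dYEATS cells and 2.73 and 3.38 CPM in MLL-ENL cells. It was higher in both MLL-ENL dYEATS libraries but was not called, with a log2 fold change of 0.50 and an adjusted p of 0.146 by edgeR's quasi-likelihood test. Scmh1, a sterile alpha motif protein of PRC1, had 17.6 and 18.1 CPM in MLL-ENL dYEATS cells, against 10.01 and 14.7 CPM in MLL-ENL cells. It too was higher in both MLL-ENL dYEATS libraries without being called, at a log2 fold change of 0.53 and an adjusted p of 0.136 by edgeR's quasi-likelihood test.

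None of the 7 variant PRC1 genes of the list was called, against 16.9% of all genes tested, and their median log2 fold change was 0.14. The list is short, and its difference from that share was not tested. The nearest to the threshold was Pcgf3, which defines a PRC1 variant with a known part in X inactivation, at 72.6 and 75.7 CPM in MLL-ENL dYEATS cells, against 45.6 and 58.4 CPM in MLL-ENL cells. Its libraries did not overlap, and its log2 fold change was 0.51 with an adjusted p of 0.0780 by edgeR's quasi-likelihood test. DESeq2 did call Pcgf3, at an adjusted p of 0.0437. Kdm2b, which brings a variant PRC1 to unmethylated CpG islands, had 100.1 CPM in both MLL-ENL dYEATS libraries, against 131.7 and 120.0 CPM in MLL-ENL cells. It was lower in both MLL-ENL dYEATS libraries and not called, with a log2 fold change of -0.33 and an adjusted p of 0.103 by edgeR's quasi-likelihood test. Rybp, which stimulates the ligase in variant PRC1, had 61.5 and 64.9 CPM in MLL-ENL dYEATS cells, against 38.6 and 54.2 CPM in MLL-ENL cells. These libraries did not overlap either, and the log2 fold change was 0.45 with an adjusted p of 0.160. For its paralog Yaf2, and for Pcgf1, Pcgf5 and Pcgf6, log2 fold changes lay between -0.21 and 0.18, the libraries overlapped, and adjusted p lay between 0.430 and 0.908 by edgeR's quasi-likelihood test.

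Per length, the PCGF family was led by Bmi1 and Pcgf5 in all 4 libraries. Bmi1 held 34.3% and 33.3% of its summed FPKM in MLL-ENL dYEATS cells and 38.4% and 31.2% in MLL-ENL cells. Pcgf5 held 33.1% and 32.4% in MLL-ENL dYEATS cells and 32.8% and 37.9% in MLL-ENL cells. The shares of both overlapped between the lines, and MLL-ENL replicate 1 and replicate 2 differed in which of them came first.

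None of the 11 listed core and accessory genes of PRC2 was called, against 16.9% of all genes tested. The list is short, and its difference from that share was not tested. The 11 genes had log2 fold changes between -0.20 and 0.37, with a median of 0.04. Ezh2, the methyltransferase of dividing cells, had 100.7 and 99.7 CPM in MLL-ENL dYEATS cells, against 97.1 and 101.8 CPM in MLL-ENL cells. The MLL-ENL dYEATS values fell within the range of the MLL-ENL libraries. Its log2 fold change was 0.01 ± 0.10 (SE), with an adjusted p of 0.956 by edgeR's quasi-likelihood test. The paralog Ezh1, which prevails in resting cells, had 27.997 and 28.2 CPM in MLL-ENL dYEATS cells and 30.1 and 33.9 CPM in MLL-ENL cells, with a log2 fold change of -0.19 and an adjusted p of 0.334. In FPKM Ezh2 exceeded Ezh1 by 6.38 and 5.91 times in MLL-ENL dYEATS cells and by 5.67 and 5.13 times in MLL-ENL cells.

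Because EZH2 levels are known to follow proliferation, DNA replication genes stand beside these values. Of 17 tested, 1 rose, Rrm2, the small subunit of ribonucleotide reductase, with 404 and 405 CPM in MLL-ENL dYEATS cells against 177 and 248 CPM in MLL-ENL cells (log2 fold change 0.93, adjusted p = 0.0243 by edgeR's quasi-likelihood test). The other 16 were not called, so that 5.88% of the list was called, against 16.9% of all genes, and the median log2 fold change of the 17 was 0.04. The proliferation marker Mki67 had 746 and 744 CPM in MLL-ENL dYEATS cells, within the 590 and 913 CPM of MLL-ENL cells.

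Eed, which reads the PRC2 mark and stimulates the enzyme, had the largest log2 fold change among these 11 genes, 0.37. It had 60.6 and 56.6 CPM in MLL-ENL dYEATS cells, against 47.6 and 43.4 CPM in MLL-ENL cells, without overlap, and an adjusted p of 0.0924 by edgeR's quasi-likelihood test. Suz12, the scaffold of PRC2, had 319 and 327 CPM in MLL-ENL dYEATS cells, against 213 and 319 CPM in MLL-ENL cells. The higher MLL-ENL library lay just under the MLL-ENL dYEATS libraries, and the adjusted p was 0.390 for a log2 fold change of 0.28. The histone chaperones Rbbp4 and Rbbp7, which also serve other complexes, were lower in both MLL-ENL dYEATS libraries, with log2 fold changes of -0.13 and -0.20 and adjusted p of 0.487 and 0.323 by edgeR's quasi-likelihood test.

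Per length, the subunits of PRC2 were also set against Ezh2. The ratio of Eed to Ezh2 in FPKM was 0.940 and 0.877 in MLL-ENL dYEATS cells, against 0.690 and 0.673 in MLL-ENL cells. The ratio of Suz12 to Ezh2 was 1.67 and 1.70 in MLL-ENL dYEATS cells, against 1.14 and 1.61 in MLL-ENL cells. Both ratios were higher in both MLL-ENL dYEATS libraries, and neither was tested.

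The accessory subunits sort PRC2 into its known forms, with Phf1, Mtf2 and Phf19 (the Polycomb-like proteins) in one and Jarid2 and Aebp2 in the other. None of the 5 was called, against 16.9% of all genes tested, and the median log2 fold change was 0.05. Mtf2, which leads PRC2 to CpG islands, had 78.3 and 79.5 CPM in MLL-ENL dYEATS cells, against 64.1 and 68.2 CPM in MLL-ENL cells, with a log2 fold change of 0.25 and an adjusted p of 0.169 by edgeR's quasi-likelihood test. Phf1 had 11.2 and 11.1 CPM in MLL-ENL dYEATS cells and 9.82 and 8.001 CPM in MLL-ENL cells, with an adjusted p of 0.215. The Mtf2 and Phf1 libraries did not overlap between the lines, while those of Jarid2, Aebp2 and Phf19 did, with log2 fold changes of 0.01, 0.04 and 0.05. Phf1 overlaps Cuta, and Mtf2 overlaps Tmed5, on the opposite strand, and without a known strand setting reads could be split between such genes.

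The BAP1 complex removes the ubiquitin that PRC1 places on H2A, and ASXL1 is often mutated in myeloid disease. None of its 3 genes was called, against 16.9% of all genes tested. Asxl1 had 144.9 and 144.5 CPM in MLL-ENL dYEATS cells, against 91.0 and 119.0 CPM in MLL-ENL cells. The MLL-ENL dYEATS libraries lay above both MLL-ENL libraries, with a log2 fold change of 0.46 and an adjusted p of 0.105 by edgeR's quasi-likelihood test. Asxl2 had 70.6 and 69.9 CPM in MLL-ENL dYEATS cells, between the 49.7 and 84.0 CPM of MLL-ENL cells. Bap1 likewise had 66.7 and 66.1 CPM in MLL-ENL dYEATS cells, between the 53.5 and 69.8 CPM of MLL-ENL cells, with log2 fold changes of 0.07 for Asxl2 and 0.11 for Bap1.

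The 5 COMPASS methyltransferases in the list are Kmt2b, an enzyme of bivalent promoters, Kmt2c and Kmt2d, which mark enhancers, and Setd1a and Setd1b, which place most H3K4 trimethylation. None was called, against 16.9% of all genes tested, and none had libraries that stood apart, against 64.3% of all genes. Their median log2 fold change was 0.05. Kmt2d had 162 and 158 CPM in MLL-ENL dYEATS cells, between the 126 and 184 CPM of MLL-ENL cells. Kmt2c had 60.2 and 64.0 CPM in MLL-ENL dYEATS cells, against 61.8 and 96.2 CPM in MLL-ENL cells, the largest fold change of the 5 at -0.35 on the log2 scale, with an adjusted p of 0.331 by edgeR's quasi-likelihood test. Kmt2b, Setd1a and Setd1b had log2 fold changes of 0.15, 0.08 and -0.03. In MLL-ENL replicate 1, 460 counts were assigned to Gm49388, a gene that overlaps Setd1a on the same strand, against 6 and 18 in MLL-ENL dYEATS cells and 2 in MLL-ENL replicate 2. With these reads added to Setd1a, a choice made after the values were seen, its log2 fold change was -0.03 and it was again not called.

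All 5 of these genes were lower in MLL-ENL replicate 1 than in MLL-ENL replicate 2, as were 30 of the 43. The matching share of all genes was not obtained. The median size of the log2 ratio between the libraries of a pair was 0.0339 in MLL-ENL dYEATS cells and 0.296 in MLL-ENL cells over the 43 genes. Over all 13245 genes tested, with 0.1 CPM added to each value, it was 0.0638 and 0.278 in the same pairs. The wide MLL-ENL spread is thus not particular to the 43 genes. Among the 43 the widest was 0.41 for Cbx6 in the MLL-ENL dYEATS pair and 0.83 for Pcgf6 in the MLL-ENL pair. Across the 43 genes the log2 ratio of replicate 1 over replicate 2 had a Spearman correlation with exonic length of -0.0858 in the MLL-ENL dYEATS pair and -0.370 in the MLL-ENL pair. Over the 13237 tested genes with a length it was 0.0649 and -0.393 in the same pairs. Genes share their libraries, so these are descriptions. Counted over all annotated exons, the 5 methyltransferases range from 6795 exonic bases for Setd1a to 20291 for Kmt2c. Without MLL-ENL replicate 1 the log2 fold change of Kmt2d was -0.20, and without MLL-ENL replicate 2 it was 0.35.

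**Figure D4:**
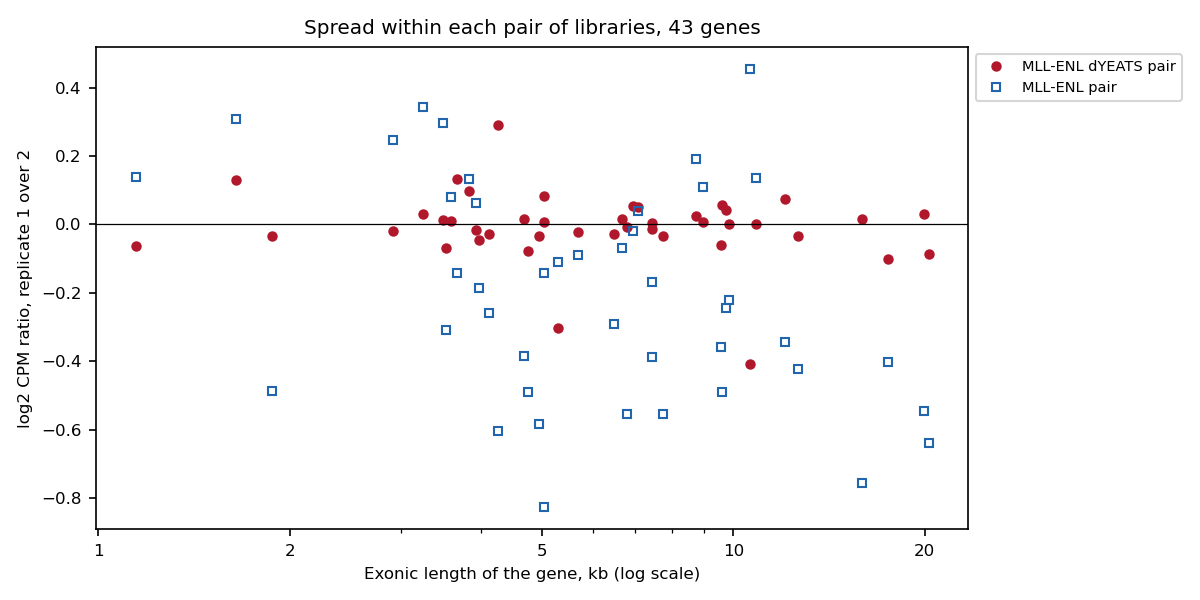
Log2 CPM ratio of replicate 1 over replicate 2 within each line, against exonic length in kilobases on a log axis, for the 43 genes. The MLL-ENL dYEATS pair lies close to 0, while the MLL-ENL pair spreads from below -0.8 to above 0.4 with the long genes mostly below 0.

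The shared core of COMPASS, which every one of its enzymes needs for full activity, held the gene that rose. Of its 4 listed genes 1 was called (25%, against 16.9% of all genes tested). Ash2l (ENSMUSG00000031575, chr8:25815996-25847694, minus strand) encodes the subunit that, with RBBP5, activates the catalytic SET domain. It had 241.1 and 239.9 CPM in MLL-ENL dYEATS cells, against 136.2 and 126.2 CPM in MLL-ENL cells. The libraries of the lines stood well apart and those of each line lay close together. The mean was 240.5 ± 0.894 CPM in MLL-ENL dYEATS cells and 131 ± 7.01 CPM in MLL-ENL cells (SD, n = 2 each), 1.83-fold higher in MLL-ENL dYEATS cells, with a log2 fold change of 0.87 ± 0.11 (SE) and an adjusted p of 0.00553 by edgeR's quasi-likelihood test. Its size ranks 616th among the 932 genes called higher. The transcript length that joins its counts to FPKM was 2122 and 2142 bases in MLL-ENL dYEATS cells and 2367 and 2371 bases in MLL-ENL cells. On FPKM Ash2l was 2.11-fold higher, at 115.8 and 113.9 in MLL-ENL dYEATS cells and 54.8 and 53.8 in MLL-ENL cells. Without MLL-ENL dYEATS replicate 1 or replicate 2 it was not called, at adjusted p of 0.0701 and 0.0667 with log2 fold changes of 0.86 and 0.87.

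The other core subunits did not pass the test. Wdr5, which docks the complex on the enzyme, had 131.3 and 130.4 CPM in MLL-ENL dYEATS cells, against 126.9 and 120.0 CPM in MLL-ENL cells. Rbbp5, which forms a pair with ASH2L, had 62.3 and 63.1 CPM in MLL-ENL dYEATS cells, against 60.3 and 57.7 CPM in MLL-ENL cells. Dpy30, which binds the end of ASH2L, had 56.8 and 59.4 CPM in MLL-ENL dYEATS cells, against 58.2 and 52.9 CPM in MLL-ENL cells. Wdr5 and Rbbp5 were a little higher in both MLL-ENL dYEATS libraries and Dpy30 overlapped. Their log2 fold changes were 0.08, 0.09 and 0.06, with adjusted p of 0.619, 0.604 and 0.729 by edgeR's quasi-likelihood test.

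The balance within the core therefore differed between the lines on the scale of FPKM, for which the length used for Ash2l differed as well. Ash2l exceeded Rbbp5 by 4.92 and 4.64 times in MLL-ENL dYEATS cells, against 2.55 and 2.42 times in MLL-ENL cells. It exceeded Wdr5 by 2.21 and 2.22 times in MLL-ENL dYEATS cells, against 1.16 and 1.13 times in MLL-ENL cells. The ratio of Wdr5 to Rbbp5, which does not involve Ash2l, was 2.23 and 2.09 in MLL-ENL dYEATS cells and 2.21 and 2.14 in MLL-ENL cells, so it overlapped.

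**Figure D5:**
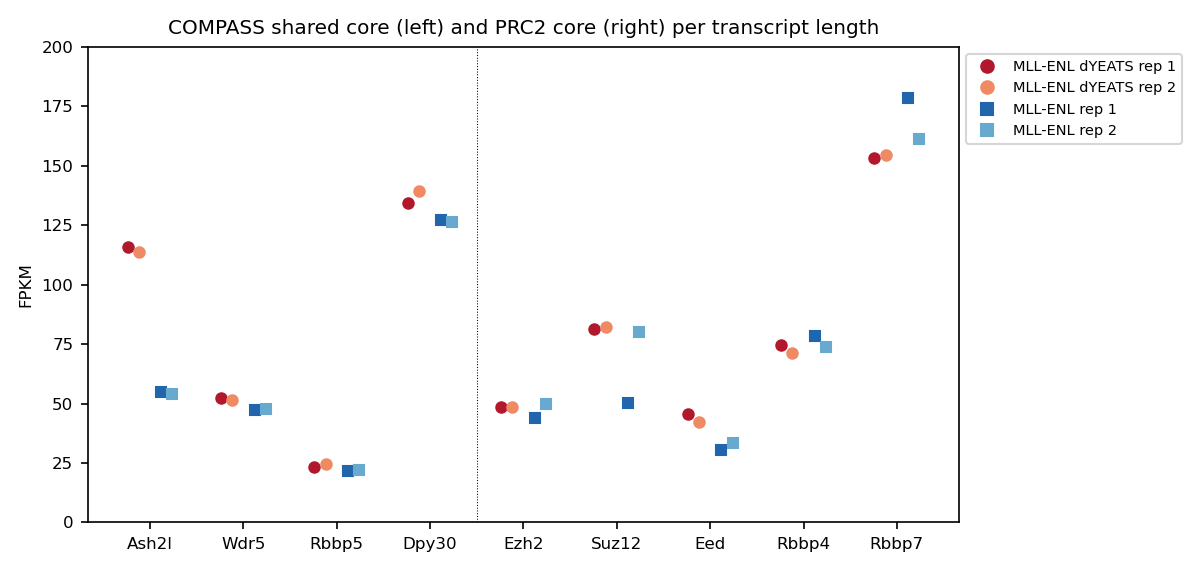
FPKM of the subunits of the COMPASS shared core and of the PRC2 core in each library, with MLL-ENL dYEATS left of MLL-ENL; each point is 1 library. Ash2l stands at 115.8 and 113.9 FPKM in MLL-ENL dYEATS cells, against 54.8 and 53.8 in MLL-ENL cells, while Wdr5, Rbbp5, Dpy30 and Ezh2 lie close together in the lines.

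Kdm6b (JMJD3), the demethylase that removes the PRC2 mark, had 65.3 and 62.9 CPM in MLL-ENL dYEATS cells, against 57.6 and 58.4 CPM in MLL-ENL cells. Its libraries did not overlap, but it was not called, with a log2 fold change of 0.14 and an adjusted p of 0.394 by edgeR's quasi-likelihood test.

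The remaining subunits of these complexes were listed by complex whatever their values. Of 46, 45 had a row and 41 were tested. In MLL-ENL dYEATS cells 1 of the 41 rose and 1 fell (4.88% called, against 16.9% of all genes), and the median log2 fold change was 0.11. Scml2, Asxl3 and Uty were at 0 counts in all 4 libraries.

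The decrease was in Epop (chr11:97627389-97629702, minus strand), a PRC2 partner that also binds elongin. It had 1.40 and 1.08 CPM in MLL-ENL dYEATS cells, against 39.7 and 30.3 CPM in MLL-ENL cells. Its mean of 1.24 ± 0.222 CPM in MLL-ENL dYEATS cells was 28.2-fold lower than the 35.0 ± 6.64 CPM of MLL-ENL cells (SD, n = 2 each), with a log2 fold change of -4.81 ± 0.23 (SE) and an adjusted p of 0.000381 by edgeR's quasi-likelihood test. Epop was the most changed of all listed subunits, ranked 162nd among the 1303 genes called lower, and was called in each fit that was run.

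The increase was in Bcor (chrX:12036740-12160355, minus strand), the corepressor that holds the variant PRC1 of PCGF1 and KDM2B together and is mutated in myeloid leukaemia. It had 186.4 and 177.6 CPM in MLL-ENL dYEATS cells, against 78.1 and 112.8 CPM in MLL-ENL cells. The log2 fold change was 0.93 ± 0.19 (SE), with an adjusted p of 0.0296 by edgeR's quasi-likelihood test. Its call was lost when MLL-ENL dYEATS replicate 1 was left out (0.0556) and by limma on FPKM (0.0515 with a pseudocount of 1). Its partners Pcgf1 and Kdm2b had log2 fold changes of 0.18 and -0.33, neither called.

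Kmt2a, the gene whose product is part of the fusion, had 70.5 and 67.9 CPM in MLL-ENL dYEATS cells, between the 51.9 and 84.1 CPM of MLL-ENL cells. Whether reads from the fusion transcript count towards Kmt2a cannot be read from the tables, so its level may hold both. The MLL cofactors Men1 and Psip1 had log2 fold changes of -0.13 and 0.19, neither called.

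Loci that Polycomb is known to silence were taken as lists of 30 genes of the INK4 locus and the HoxB, HoxC and HoxD clusters and 38 developmental regulators. Of the 30, 21 were at 0 counts in all 4 libraries and 5 were tested, of which 1 rose and 2 fell. Of the 38, 29 were at 0 in all libraries and 3 were tested, of which 1 rose. A gene with too few counts in both lines could not be tested, but a gene with enough counts in either line could. These counts cover only the tested members, so the 16.9% called over all genes is not a like reference.

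At the INK4 locus Cdkn2b (p15), a cell cycle inhibitor, rose but stayed low, with 1.23 and 0.977 CPM in MLL-ENL dYEATS cells, against 0.336 and 0.178 CPM in MLL-ENL cells. These are 36 and 28 counts against 9 and 5 counts, with a log2 fold change of 2.09 and an adjusted p of 0.0231 by edgeR's quasi-likelihood test, and 0.0636 without MLL-ENL dYEATS replicate 1. Cdkn2a (p16 and p19) had 19.0 and 20.3 CPM in MLL-ENL dYEATS cells, against 15.5 and 9.03 CPM in MLL-ENL cells, and was not called, with an adjusted p of 0.138. Hoxb4 had 0.375 and 0.698 CPM in MLL-ENL dYEATS cells, against 2.84 and 3.09 CPM in MLL-ENL cells, with a log2 fold change of -2.46 and an adjusted p of 0.00764 by edgeR's quasi-likelihood test. Its neighbour Hoxb3 also fell, on 3 and 5 counts in MLL-ENL dYEATS cells against 12 and 18 counts in MLL-ENL cells, with an adjusted p of 0.0483. That call was lost in 8 of 12 alternative fits, among them DESeq2 (0.187) and those that left out MLL-ENL dYEATS replicate 1 (0.352), MLL-ENL dYEATS replicate 2 (0.127) or MLL-ENL replicate 2 (0.0614). Foxa1, an endoderm pioneer factor, rose, with 3.44 and 3.18 CPM in MLL-ENL dYEATS cells, against 0.299 and 0.640 CPM in MLL-ENL cells (log2 fold change 2.80, adjusted p = 0.00629 by edgeR's quasi-likelihood test). Cdkn2b, Hoxb3 and Foxa1 had few counts in the line where they were lower, and passed the filter through the line where they were higher. Genes that enter the test in this way are picked for a difference, so their calls do not describe the lists.

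The 3 protein-coding genes on each side of the called genes and of Cbx8 were read as well, chosen after the values were seen. Of 36 such neighbours 21 were tested, and 2 rose and 3 fell (23.8% called, against 16.9% of all genes). Next to Cbx6, between it and Cbx7, lies Apobec3, a cytidine deaminase that restricts retroviruses. It had 1.74 and 1.36 CPM in MLL-ENL dYEATS cells, against 19.4 and 19.2 CPM in MLL-ENL cells, with a log2 fold change of -3.63 ± 0.18 (SE) and an adjusted p of 0.000384 by edgeR's quasi-likelihood test. Cbx7, which lies just beyond and overlaps Apobec3 on the other strand, was not called at 6.57 and 6.70 CPM in MLL-ENL dYEATS cells and 6.01 and 7.36 CPM in MLL-ENL cells. Next to Epop lies Mllt6 (AF17), itself an MLL fusion partner, which fell, with 10.7 and 9.04 CPM in MLL-ENL dYEATS cells against 20.6 and 16.7 CPM in MLL-ENL cells (log2 fold change -0.92, adjusted p = 0.0198 by edgeR's quasi-likelihood test). Its call was lost without MLL-ENL dYEATS replicate 2 (0.106) and by limma on FPKM (0.0652 with a pseudocount of 1). Cbx2 lies next to Cbx8 on chromosome 11 and neither was called, while Tbc1d16, among the neighbours of Cbx8 on the other side, rose, with 6.20 and 6.42 CPM in MLL-ENL dYEATS cells against 1.42 and 1.28 CPM in MLL-ENL cells (log2 fold change 2.22, adjusted p = 0.00178 by edgeR's quasi-likelihood test). Of the expressed neighbours of Phc1, M6pr was not called, with a log2 fold change of -0.23. Next to Ash2l, Star, a cholesterol carrier of steroid synthesis, rose, with 3.71 and 4.40 CPM in MLL-ENL dYEATS cells against 2.28 and 2.24 CPM in MLL-ENL cells (log2 fold change 0.84, adjusted p = 0.0440 by edgeR's quasi-likelihood test). On its other side Pomk, a kinase of dystroglycan glycans, fell, with 18.5 and 17.6 CPM in MLL-ENL dYEATS cells against 26.9 and 24.3 CPM in MLL-ENL cells (log2 fold change -0.50, adjusted p = 0.0458). The call of Star was lost in 5 of 12 alternative fits, without MLL-ENL dYEATS replicate 1 (0.163) or replicate 2 (0.451) among them. That of Pomk was lost in 8 of 13, likewise including the fits without MLL-ENL dYEATS replicate 1 (0.415) or replicate 2 (0.538).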

How the data were processed

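Poly(A)-selected RNA was made into libraries with a Swift kit, per the labels' protocols, and GRCm38, STAR 2.7.8a, RSEM 1.3.3, FastQC 0.11.8 and cutadapt 2.3 were used, per the submitters' processing notes. The authors deposited expected counts per gene, whole as deposited, and FPKM, which are scaled for length and depth. Their settings, annotation release and strandedness were all not given in the sources used here. Therefore overlapping, antisense and near-identical genes are uncertain; 20 of the 43 genes are overlapped by another annotated gene. Dates stood in place of 27 symbols, which were restored by identifier from GENCODE M21, the source of positions and lengths. Promoters are from a RefSeq table (GRCm38.p6).

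Groups were taken from the sample titles. Expected counts were filtered (filterByExpr), scaled (TMM) and tested with edgeR 4.0.16 in R 4.3.3 by the quasi-likelihood F-test (legacy fit), with Benjamini-Hochberg adjustment over 13245 genes. With 2 residual degrees of freedom, a gene's own spread rests on 2 pairs of libraries. The fit draws it towards the trend over all genes, with a weight of 3.41 prior degrees of freedom. CPM use the TMM sizes, fold changes of means are on CPM, and SE is the log2 fold change over the square root of F. Floors of 3 counts cover counting error only. Counts within a pair differed by more than sampling noise (chi-square per degree of freedom 1.99 in the MLL-ENL dYEATS pair and 89.8 in the MLL-ENL pair), so each library was counted. Shares of paralogs and ratios are FPKM values without a test; shares within the CBX family are not reported here. The fit was also run on simulated counts. These gave every library the same spread, unlike the pairs here, so they do not show how the fit performs on these data.

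The rule for names takes all 43 genes, the other listed subunits, and of the context and marker lists the called genes, Cdkn2a, Cdkn2b and Mki67; neighbours and some markers were chosen after their values were seen. The 43 genes and all lists were chosen with earlier results of these data known. Alternatives were other scalings and filters, DESeq2 1.42.0, limma 3.58.1 on log2 FPKM with pseudocounts of 1 and 0.1, removal of a gene-length trend, a replicate block, and each library left out.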

Additional observations from a re-analysis of the deposited data

How the results depend on the processing

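Cbx6 and Epop were called in every fit that was run. Phc1 was lost by limma on FPKM, and Ash2l without either MLL-ENL dYEATS library, as given above. Of all genes 2235 were called, against 1350 with at least 5 CPM in 2 libraries, 1466 by limma on log2(FPKM + 1), and 1392 to 9099 with a library left out. Of the 43 genes 3 were called, against 2 to 29 with a library left out, 4 by DESeq2 and 4 with the length trend removed (Pcgf3 added in both). Of the other 41 subunits 2 were called, against 1 by limma with either pseudocount and 1 to 33 with a library left out. The median log2 fold change of the 43 genes was 0.06, against -0.06 when MLL-ENL replicate 1 was left out and 0.15 when replicate 2 was. For 19 of the 43 genes the log2 fold change had one sign with MLL-ENL replicate 1 left out and the opposite sign with MLL-ENL replicate 2 left out. Of these genes, a fit that left out a library called the gene with the sign opposite to that with all libraries for Pcgf6 (-0.30 to 0.53), Jarid2 (-0.10 to 0.14), Asxl2 (-0.26 to 0.50), Kmt2d (-0.20 to 0.35), Setd1a (-0.17 to 0.38), and Setd1b (-0.19 to 0.16), and of the other genes named above the same held for Kmt2a (-0.28 to 0.42) and Mki67 (-0.30 to 0.34), on the log2 scale. The lowest is without MLL-ENL replicate 1 and the highest without MLL-ENL replicate 2 in each case; the cause was not tested.

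The replicate numbers do not pair the libraries by any label, and the correlation of deviations between same-numbered libraries was -0.068 over 13245 genes. With a replicate block 5 of the 43 genes were called (Pcgf3 and Scmh1 added) and 4 of the other 41 (Hcfc2 and Lcorl added), and 3133 of all genes. Genes at a few CPM, such as Phc1, rest on few counts, and small differences in them are not detectable at this depth.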
